A study of Homo sapiens with 15 samples.

Results

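The genes described here encode the aminoacyl-tRNA synthetases, the enzymes that load each tRNA with its amino acid. They were chosen by symbol from the deposited table, as the letter of the amino acid followed by ARS and, where present, 1, 2, A or B, together with EPRS. Of the 48 matching rows, 11 were repeat entries of VARS and VARS2 with a count of 0 in every library and were set aside, which left 37 genes of the 25737 listed. These were 18 enzymes of the cytosol, 17 of the mitochondrion, whose symbols end in 2, and GARS and KARS, which serve both compartments. The rule used no measured value, and all 37 genes passed the filter on low values, which kept the upper 50% of genes by mean deposited log2 value.

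A synthetase activates its amino acid with ATP and joins it to the matching tRNA, which then delivers it to the ribosome. The cytosol and the mitochondrion translate separately, so most amino acids have an enzyme for each, both encoded in the nucleus. In the cytosol some synthetases are held together with scaffold proteins in the multi-synthetase complex, and others work alone. When amino acids are scarce or the endoplasmic reticulum is stressed, the transcription factor ATF4 is known to raise many cytosolic synthetase genes along with amino acid transporters and the serine and asparagine pathways.

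The libraries came from U87MG, an established human glioblastoma line, grown in DMEM with serum. Cells received lentivirus carrying GFP, the control, or overexpressing ID1, ID2, ID3 or ID4, for 24 h, with 3 libraries in each of these 5 groups. ID proteins are helix-loop-helix factors that bind other such factors and keep them off DNA. All groups, the control included, therefore received a virus, and no group without virus was analysed here. The labels do not say whether the 3 libraries of a group came from separate cultures, so each p-value measures only the spread between these libraries.

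Messenger RNA was read by QuantSeq, a method that counts 1 fragment near the 3′ end of each transcript. Levels are given as counts per 1000000 counts of the library (CPM), with library totals that ran from 11089044 to 15148979. The counts of the ID genes did not all follow the labels. ID1 was at 344 ± 6.96 CPM (SD, n = 3) in GFP and 249.7 ± 3.60 in the libraries labelled ID1. ID2 was at 85.7 ± 2.81 in GFP and 44.9 ± 1.28 in those labelled ID2. ID3 was higher than in GFP (221 ± 8.33) both in the libraries labelled ID3 (313 ± 11.4) and in those labelled ID2 (287 ± 27.8), and ID4 rose from 0 to 2 counts in GFP libraries to 223 ± 12.5 CPM in those labelled ID4. A 3′ read need not cover a transgene that lacks the gene's own 3′ end, and how the constructs end is not given in the sources used here. Group names below are the labels, and no direction is drawn from the level of the transgene. Of the glioma markers, VIM, CD44 and NES were present in every library, while SOX2, GFAP, S100B and OLIG2 did not exceed 11 counts. Of the 10 markers listed for other cell types, 7 did not exceed 15 counts in any library. These were PTPRC and AIF1 of blood and microglia, PECAM1 and CDH5 of endothelium, EPCAM and CDH1 of epithelium, and RBFOX3 of neurons. SYT1 of neurons had 21 to 51 counts. The neuronal SNAP25 and the myeloid CD68 were counted in every library, at 8.40 ± 1.98 and 52.2 ± 3.71 CPM in GFP and highest in ID2, at 27.8 ± 6.05 and 71.7 ± 1.80, and their part in the results was not tested.

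Promoter sequences are shown first, because several of the members that fell have the same 8 letters near their start. RefSeq promoters (build GRCh38.p14), 300 bases from 250 before to 50 after each transcript start, were compared for 29 members, 13 cytosolic, 14 mitochondrial and the 2 that serve both. They were searched on both strands for TGATGNAA, whose reverse complement is TTNCATCA, the core letters of the element at which ATF4 is known to pair with C/EBP factors. The letters occurred in 7 members, 5 of them cytosolic (CARS, IARS, MARS, NARS and TARS), with GARS and the mitochondrial YARS2. Of all 35116 promoters in the table, 3.62% held them, and of the 27305 genes, counted as the members were, 4.46% held them in any promoter. The 5 cytosolic members each held the same form, TTGCATCA or its reverse complement TGATGCAA, which was looked for separately after these matches were seen and occurred in 0.866% of promoters and 1.08% of genes. The promoters of AARS2, DARS, LARS, VARS, VARS2 and YARS, among others, were not analysed here.

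The sequences below run 5′ to 3′ on the strand of the gene, with the matched letters in capitals. The window of GARS, which had one of the largest falls, is given in length, and the others are given around the match.
GARS: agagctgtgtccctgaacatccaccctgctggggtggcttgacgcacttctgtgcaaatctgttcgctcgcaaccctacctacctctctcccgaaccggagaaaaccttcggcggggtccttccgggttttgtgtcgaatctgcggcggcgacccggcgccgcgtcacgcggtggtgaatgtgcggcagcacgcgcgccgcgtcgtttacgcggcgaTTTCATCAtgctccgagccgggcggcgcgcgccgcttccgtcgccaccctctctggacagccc
CARS: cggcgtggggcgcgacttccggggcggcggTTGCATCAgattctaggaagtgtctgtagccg
IARS: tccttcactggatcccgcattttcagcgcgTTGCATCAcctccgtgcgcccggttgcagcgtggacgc
MARS: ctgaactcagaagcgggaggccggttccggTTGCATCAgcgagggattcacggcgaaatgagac
NARS: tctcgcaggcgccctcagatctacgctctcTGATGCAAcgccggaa
TARS: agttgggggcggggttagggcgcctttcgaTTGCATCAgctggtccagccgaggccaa
YARS2: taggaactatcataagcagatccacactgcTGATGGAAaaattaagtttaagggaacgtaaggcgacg
These windows lie at chr7:30594628-30594907 (GARS, plus strand), chr11:3057394-3057455 (CARS, minus strand), chr9:92293673-92293740 (IARS, minus strand), chr12:57488034-57488097 (MARS, plus strand), chr18:57621807-57621852 (NARS, minus strand), chr5:33440937-33440994 (TARS, plus strand) and chr12:32756057-32756124 (YARS2, minus strand). In GARS the first matched base is at -33 from the start, in IARS at -13, in MARS at -4 and in CARS at -2. It is at 3 after the start in TARS and at 15 after it in NARS, and the match of YARS2 is farther away, at -197. CARS, GARS and TARS each had 2 promoters listed, of which 1 held the letters. A match describes letters in a window and is not a measured binding site.

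In the mean over the 4 ID groups against GFP, 14 of the 18 cytosolic synthetases fell and 0 rose, while 1 of the 17 mitochondrial enzymes fell, 1 rose and 15 did not pass. GARS fell and KARS did not pass. Calls are at an adjusted p under 0.05 from edgeR's quasi-likelihood test over 12870 genes, of which 32% were called in this comparison, 15.2% lower and 16.8% higher. At an unadjusted p under 0.05, the number of cytosolic members that rose was also 0, and it was 0 by DESeq2 and by limma. The median log2 fold change was -0.35 over the cytosolic enzymes and 0.04 over the mitochondrial ones, beside -0.00297 over all genes tested. Summed over the 18 cytosolic genes, GFP libraries held 2469 ± 36.2 CPM (SD, n = 3). The sums were 1990 ± 16.8 in ID1, 1849 ± 4.01 in ID2, 1867 ± 8.70 in ID3 and 1925 ± 25.05 in ID4, or 80.6%, 74.9%, 75.6% and 78.0% of GFP. No ID library reached the lowest GFP library in this sum. The mitochondrial sum was 405 ± 0.343 in GFP and lay between 386 ± 19.9 in ID2 and 414 ± 3.43 in ID4. Sums are led by the genes with most counts, TARS above all in the cytosol, and are given as a description.

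**Figure D1:**
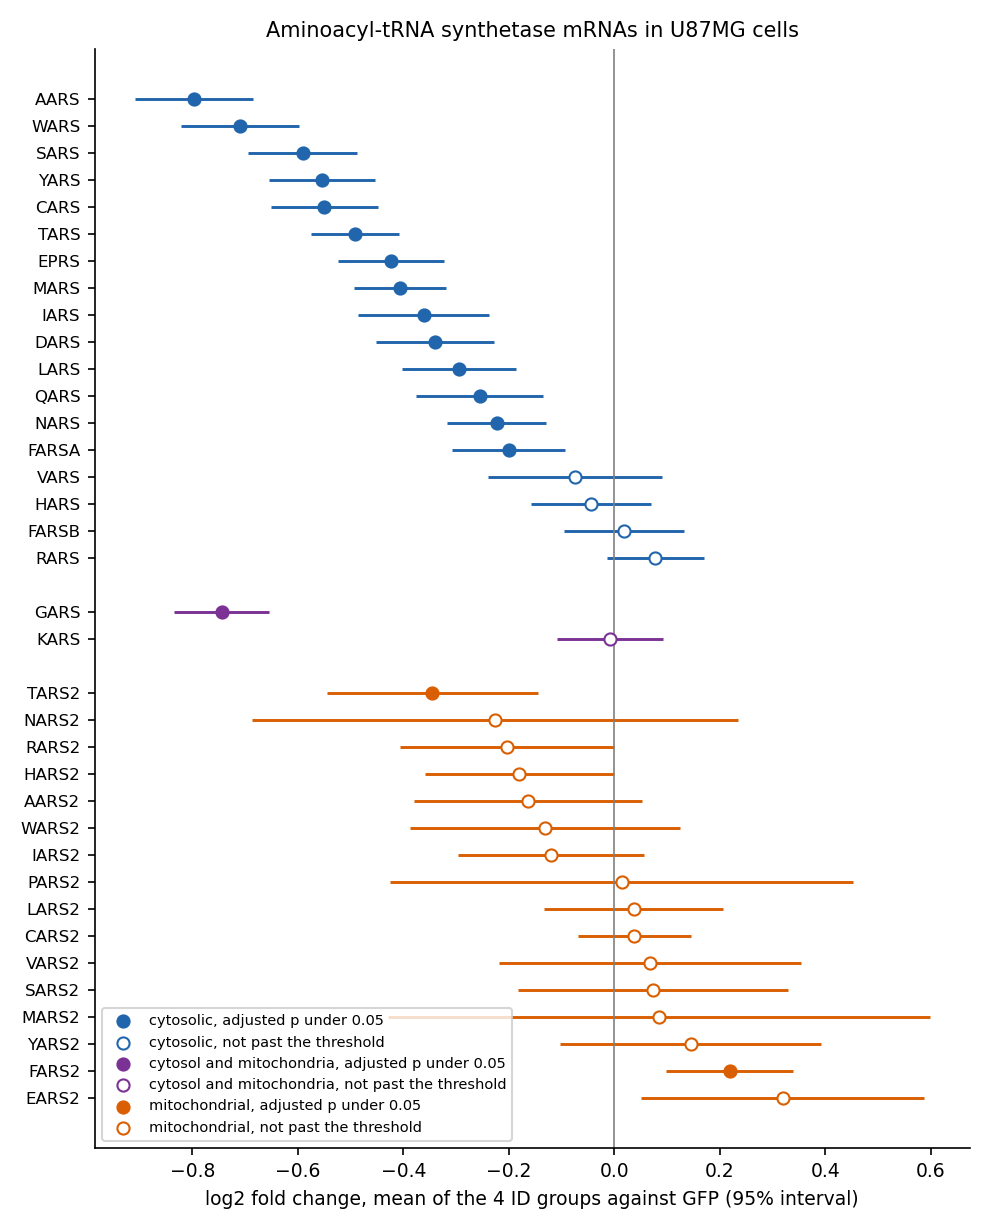
Log2 fold change of 36 synthetase mRNAs in the mean of the 4 ID groups against GFP (horizontal axis), with its 95% interval from edgeR, grouped into cytosolic (blue), dual (purple) and mitochondrial (orange). Filled points passed an adjusted p of 0.05: 14 cytosolic genes and GARS lie left of 0, and among the mitochondrial genes only TARS2 and FARS2 are filled.

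**Figure D2:**
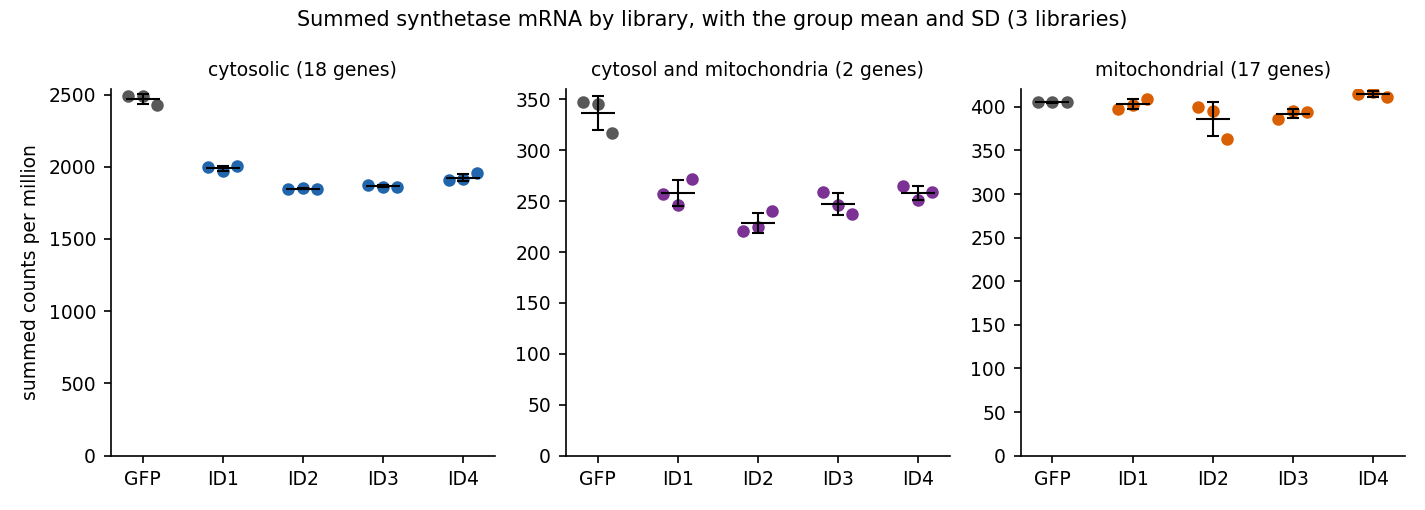
CPM summed over the cytosolic (18 genes), dual (2 genes) and mitochondrial (17 genes) synthetases in each library (points), with the group mean and SD over 3 libraries, each axis starting at 0. The GFP libraries stand above all ID libraries in the cytosolic and dual sums and within their range in the mitochondrial sum.

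The precision differed between the compartments. Standard errors of the log2 change ran from 0.04 to 0.08 for cytosolic enzymes and from 0.05 to 0.25 for mitochondrial ones, whose counts were as low as 13 in a library, against 251 for the lowest cytosolic member. A mitochondrial gene that did not pass is therefore not shown to be the same in all groups. The 95% interval lay wholly above the cytosolic median for 9 of the 17 mitochondrial enzymes, and it held that median for the other 8. Because the 4 comparisons share the GFP libraries, a difference that belongs to the GFP libraries and one that belongs to the ID proteins cannot be told apart in any of them.

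The members of the multi-synthetase complex are taken first. EPRS carries both the glutamyl and the prolyl activity on 1 chain. It was read at 80.9, 84.3 and 75.6 CPM in GFP, at 56.4, 54.7 and 56.6 in ID1, at 61.8, 63.9 and 60.7 in ID2, at 64.2, 63.4 and 58.5 in ID3, and at 56.8, 59.2 and 64.8 in ID4. Every ID library was below every GFP library. The mean change was -0.42 (SE 0.05, adjusted p = 5.09e-07).

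MARS, the methionyl enzyme, was read at 211, 213 and 202 CPM in GFP, at 169, 166 and 178 in ID1, at 157, 159 and 156 in ID2, at 144, 146 and 159.5 in ID3, and at 147, 157 and 161 in ID4. Again no ID library reached the GFP range, and the mean change was -0.41 (SE 0.04, adjusted p = 1.34e-07). The last 1000 bases of MARS overlap an exon of DDIT3, itself a stress-response gene, on the opposite strand, and whether counting used the strand is not given, so reads of the 2 genes cannot be told apart there. DDIT3 changed by -0.26 (SE 0.05).

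IARS, the isoleucyl enzyme, was read at 71.4, 65.2 and 64.2 CPM in GFP, at 59.3, 60.5 and 61.4 in ID1, at 47.3, 45.4 and 35.8 in ID2, at 52.5, 53.6 and 52.5 in ID3, and at 52.3, 58.4 and 53.9 in ID4. The ID2 libraries were the lowest and the ID1 libraries the nearest to GFP. LARS, which charges leucine, was read at 98.3, 110.3 and 95.1 CPM in GFP, at 91.3, 88.0 and 97.0 in ID1, at 77.2, 86.7 and 79.4 in ID2, at 72.8, 73.7 and 72.7 in ID3, and at 84.7, 81.8 and 92.6 in ID4. Here ID3 was lowest, and 1 ID1 library lay within the GFP range. The mean changes were -0.36 (SE 0.06, adjusted p = 6.73e-05) for IARS and -0.29 (SE 0.05, adjusted p = 1.40e-04) for LARS.

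Among the other complex enzymes, DARS for aspartate (-0.34, SE 0.05) and QARS for glutamine (-0.26, SE 0.06) fell, again with no ID library inside the GFP range. RARS, the arginyl enzyme, did not fall. It was at 131 to 142 CPM in GFP and 134 to 153 over all ID libraries, with a mean change of 0.08 (SE 0.04, adjusted p = 0.188). Of the 8 enzymes of the complex, KARS included, 6 fell and RARS and KARS did not pass, beside 15.2% of all genes lower. Of its 3 scaffold proteins, AIMP2 fell (-0.20, SE 0.04, adjusted p = 0.00132), and AIMP1 (-0.08, SE 0.07) and EEF1E1 (-0.13, SE 0.08) did not pass.

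The largest falls lay among the enzymes outside the complex. AARS charges alanine. Its CPM was 77.6, 80.0 and 68.5 in GFP, 45.0, 40.2 and 46.0 in ID1, 38.1, 39.5 and 41.5 in ID2, 42.3, 46.2 and 43.6 in ID3, and 46.4, 46.2 and 48.5 in ID4. The lowest GFP library stood well above the highest ID library. The mean change was -0.80 (SE 0.05, adjusted p = 1.49e-10), a fall of 42.4%.

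WARS is the tryptophanyl enzyme, and its gene is known to be induced by interferon. It was read at 63.1, 63.7 and 63.0 CPM in GFP, at 37.2, 37.6 and 37.5 in ID1, at 36.9, 36.3 and 40.7 in ID2, at 40.1, 43.0 and 36.4 in ID3, and at 38.9, 42.7 and 39.2 in ID4. Replicates of GFP and ID1 were close to each other. Every ID library was below every GFP library, while the ID groups overlapped in part. The mean change was -0.71 (SE 0.05, adjusted p = 9.70e-10).

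SARS, the seryl enzyme, was read at 179, 207 and 199 CPM in GFP, at 147, 139 and 139.7 in ID1, at 108, 112 and 123 in ID2, at 124, 132 and 134 in ID3, and at 136, 131 and 136 in ID4. The ID2 libraries were the lowest. YARS, which charges tyrosine, was at 90.3 to 95.9 CPM in GFP and at 58.8 to 69.9 over the 12 ID libraries. CARS, the cysteinyl enzyme, was at 155 to 163 CPM in GFP and at 96.3 to 125 in the ID libraries. Neither gene had an ID library inside the GFP range. The mean changes were -0.59 for SARS (SE 0.05, adjusted p = 4.58e-09), -0.55 for YARS (SE 0.05, adjusted p = 1.03e-08) and -0.55 for CARS (SE 0.05, adjusted p = 1.19e-08).

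TARS, the threonyl enzyme, had the most counts of all members. It was read at 701, 658 and 676 CPM in GFP, at 484, 507 and 505 in ID1, at 495, 514 and 433 in ID2, at 456, 435 and 467 in ID3, and at 505, 512 and 508 in ID4. No ID library reached the GFP range, while the ID groups overlapped in part. The mean change was -0.49 (SE 0.04, adjusted p = 3.12e-09). TARSL2, a related gene that also codes for a threonyl enzyme and lies outside the symbol rule, rose by 0.56 on the log2 scale (SE 0.13, adjusted p = 0.00251).

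Smaller falls were seen for NARS, the asparaginyl enzyme (-0.22, SE 0.05), and for FARSA (-0.20, SE 0.05), the alpha subunit of the phenylalanyl enzyme. FARSB, its beta subunit, changed by 0.02 (95% interval -0.10 to 0.13). HARS for histidine changed by -0.04 (-0.16 to 0.07) and VARS for valine by -0.07 (-0.24 to 0.09). These 3 and RARS were the cytosolic members that did not pass. For all 4 the 95% interval lay above the median of the cytosolic enzymes. Exons of WDR55 and DND1 overlap the last 1000 bases of HARS, so its counts are uncertain.

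**Figure D3:**
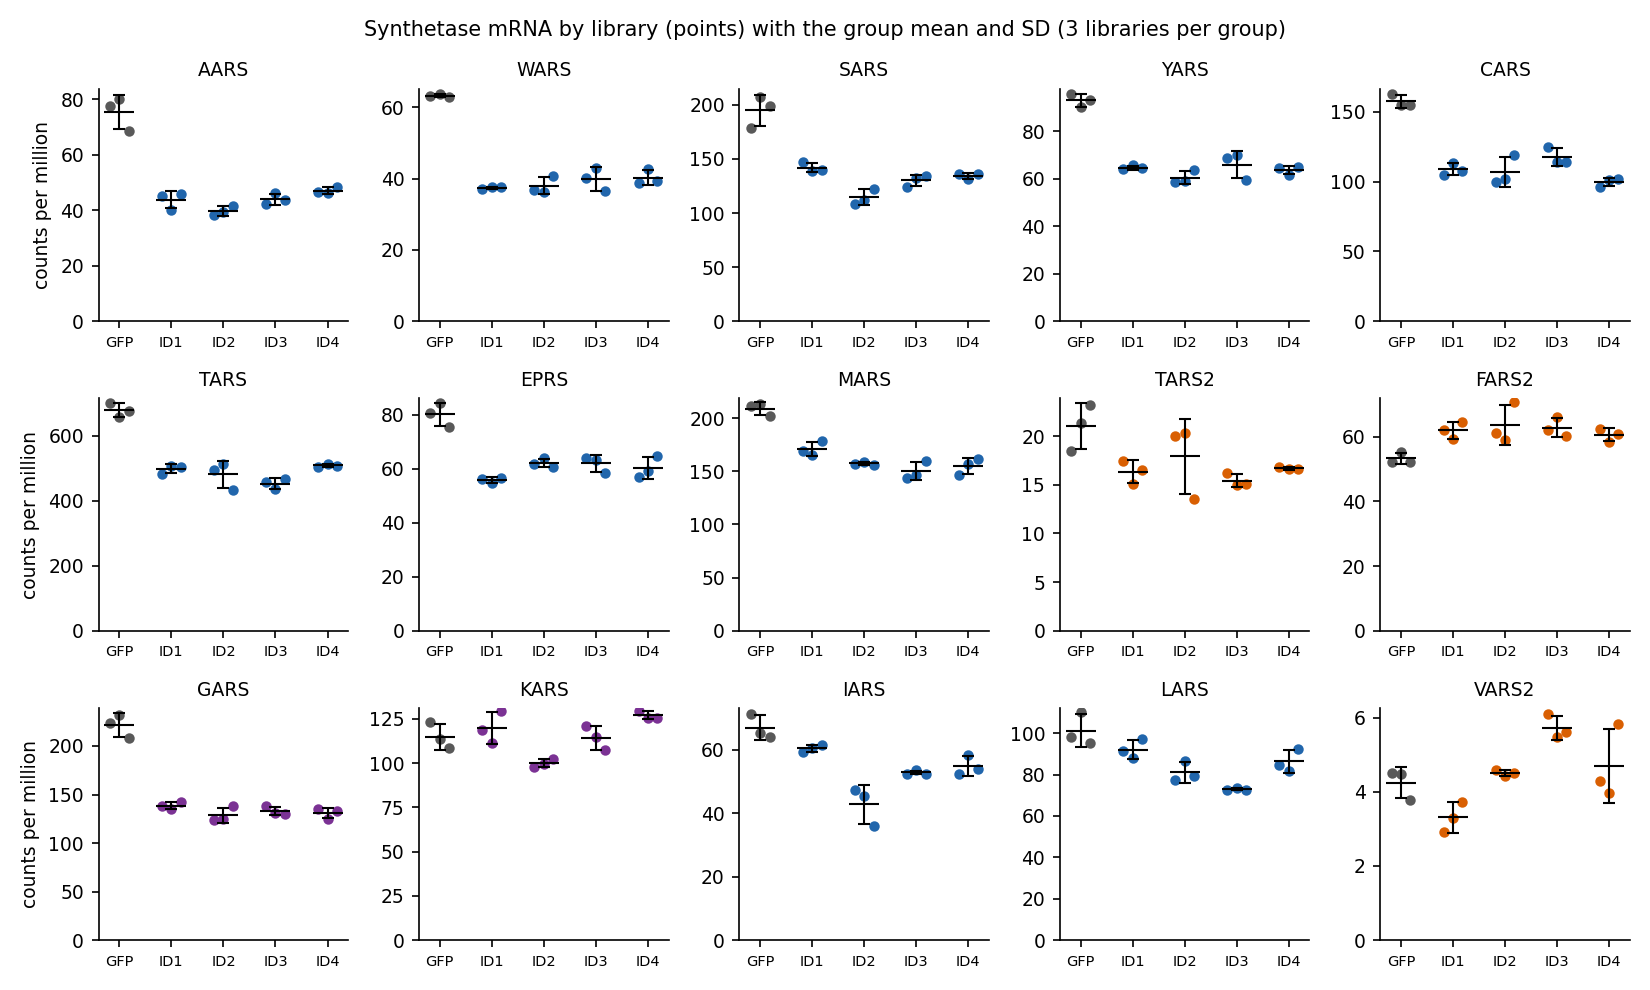
CPM of 15 synthetase genes in each library (points; GFP grey, ID groups coloured by compartment), with the group mean and SD over 3 libraries, each axis starting at 0. AARS, WARS, GARS and TARS show GFP above all 12 ID libraries, FARS2 shows GFP below them, and KARS and VARS2 show overlapping groups.

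GARS and KARS each make the enzyme of both compartments from 1 gene, and they went apart. GARS, the glycyl enzyme, was read at 224, 232 and 209 CPM in GFP, at 138, 135 and 142 in ID1, at 123, 125 and 138 in ID2, at 138, 131 and 130.0 in ID3, and at 135, 125 and 133 in ID4. GFP stood apart from all 4 ID groups, which lay close to each other. Its changes were -0.69, -0.77, -0.76 and -0.76 in ID1 to ID4, and the mean was -0.74 (SE 0.04, adjusted p = 1.04e-11), the smallest p of the set.

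KARS, the lysyl enzyme, was read at 123, 114 and 109 CPM in GFP, at 119, 112 and 129 in ID1, at 97.9, 99.4 and 102 in ID2, at 121, 115 and 107 in ID3, and at 129.6, 126 and 126 in ID4. The ID2 libraries lay below GFP, the ID4 libraries above it, and the others overlapped with it. Only the fall in ID2 passed (-0.19, SE 0.06, adjusted p = 0.0207), and the mean change was -0.01 (95% interval -0.11 to 0.09). That call in ID2 was lost without GFP replicate 1 (adjusted p = 0.0998) and without ID2 replicate 1 or 2, and also when only the groups compared were fitted (adjusted p = 0.0599).

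Among the mitochondrial enzymes, TARS2 for threonine fell and FARS2 for phenylalanine rose. TARS2 was read at 18.5, 21.4 and 23.2 CPM in GFP, at 17.5, 15.1 and 16.5 in ID1, at 20.04, 20.3 and 13.5 in ID2, at 16.2, 15.01 and 15.03 in ID3, and at 16.9, 16.6 and 16.6 in ID4. The third ID2 library was the lowest of all and the other ID2 libraries lay within the GFP range. The mean change of -0.34 (SE 0.10, adjusted p = 0.00817) no longer passed without GFP replicate 3 (-0.27, adjusted p = 0.0882).

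FARS2 was read at 52.3, 55.4 and 52.3 CPM in GFP, at 62.2, 59.3 and 64.5 in ID1, at 61.1, 59.1 and 70.9 in ID2, at 62.2, 66.1 and 60.2 in ID3, and at 62.6, 58.5 and 60.9 in ID4. Every ID library was above every GFP library, which held for 8.66% of genes tested. The mean change was 0.22 (SE 0.06, adjusted p = 0.00557). EARS2, the glutamyl enzyme, had the largest estimate upward, 0.32 (SE 0.13), which did not pass (adjusted p = 0.0639), with 6.44 to 8.31 CPM in GFP and 7.13 to 11.2 in the ID libraries.

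Other mitochondrial members, in order of the mean log2 change, were NARS2 (-0.23), RARS2 (-0.20), HARS2 (-0.18), AARS2 (-0.16), WARS2 (-0.13), IARS2 (-0.12), PARS2 (0.01), LARS2 and CARS2 (both 0.04), VARS2 (0.07), SARS2 (0.07), MARS2 (0.08) and YARS2 (0.15). The interval of CARS2, one of the better-counted genes, ran from -0.07 to 0.15, while that of MARS2 ran from -0.43 to 0.60. Exons of ZMAT2 overlap the 3′ end of HARS2 on the same strand, and those of an unnamed protein-coding gene overlap that of SARS2, also on the same strand. The counts of HARS2 and SARS2, and the pairs below that hold them, are therefore uncertain.

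Set side by side for the same amino acid, the cytosolic enzyme had the lower change in 14 of 17 pairs compared, in which EPRS is set against both EARS2 and PARS2, and FARS2 against both FARSA and FARSB. The 95% interval of the cytosolic enzyme lay wholly below that of its mitochondrial partner in 8 pairs and wholly above it in 0. Those 8 were the pairs for alanine, cysteine, glutamate, leucine, serine, tryptophan, tyrosine and, with FARSA, phenylalanine. For alanine the changes were -0.80 for AARS and -0.16 for AARS2, and for tyrosine -0.55 for YARS and 0.15 for YARS2. The pairs for threonine (TARS -0.49, TARS2 -0.34) and asparagine (NARS -0.22, NARS2 -0.23) had changes close to each other. In the pairs for arginine and histidine the mitochondrial estimate was the lower one (RARS 0.08, RARS2 -0.20, HARS -0.04, HARS2 -0.18), with overlapping intervals.

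**Figure D4:**
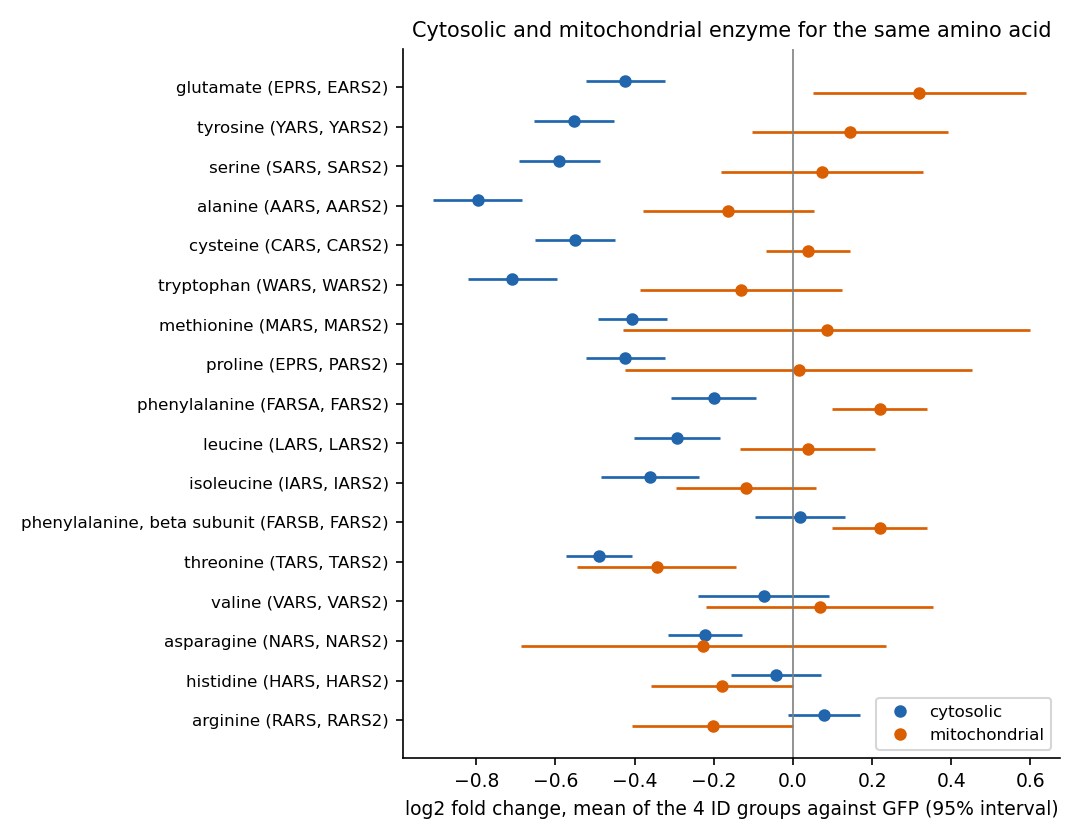
Log2 fold change in the mean of the 4 ID groups against GFP with its 95% interval, for the cytosolic (blue) and mitochondrial (orange) enzyme of the amino acids compared, ordered by the difference between them. In 8 of the 17 pairs the blue interval ends left of the orange one. The overlapping pairs for methionine and proline lie above the separated ones for phenylalanine (FARSA) and leucine. At the bottom (arginine, histidine) the order is turned with overlapping intervals.

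Against GFP, each ID group gave a similar count. In ID1, 14 of 37 members passed (22.1% of all genes passed), with 10 cytosolic members lower and 1 higher, RARS (0.16, SE 0.06, adjusted p = 0.0431). In ID2, 18 of 37 passed (35.1% of all genes), in ID3 18 (28.6%) and in ID4 15 (21.6%), and in each of these 3 comparisons 14 cytosolic members were lower. The shares of all genes that were lower in ID1 to ID4 were 9.73%, 16.7%, 13.5% and 9.51%, and the shares that were higher were 12.4%, 18.5%, 15.1% and 12.1%. The median log2 change of the cytosolic enzymes was -0.24 in ID1, -0.37 in ID2, -0.40 in ID3 and -0.30 in ID4. For the mitochondrial enzymes the medians were -0.01, -0.01, 0.01 and -0.02.

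Lower in all 4 comparisons were 11 members, YARS, SARS, EPRS, CARS, MARS, WARS, AARS, DARS, QARS, TARS and GARS, beside 4.16% of all genes tested, and the comparisons share their GFP libraries. No member was higher in all 4, which held for 6.11% of all genes. Another 4 (NARS, FARSA, LARS and IARS) were lower in 3, and ID1 was the comparison in which each of them did not pass. All 12 ID libraries lay below all 3 GFP libraries in 13 members, which held for 6.15% of genes. Of these, 12 were cytosolic and the other was GARS. The call was lost without some single library for 5 members in ID1, 3 in ID2, 4 in ID3 and 4 in ID4. QARS was among them in ID1, ID3 and ID4, each without GFP replicate 2 (adjusted p = 0.0870, 0.0824 and 0.0859). Without ID1 replicate 2, the count in ID1 was 9, and DARS, QARS, RARS, TARS2 and FARS2 no longer passed. The rise of RARS also no longer passed without 4 of the other 5 libraries, and that of FARS2 without any of them.

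Among the 4 ID groups themselves, 9 of 37 members differed by the F test of any difference, a share of the set below the 29.1% of all genes that did, and 8 of them are described here. Pair by pair, 4 of 37 members differed between ID2 and ID1 (18.6% of all genes), 3 between ID3 and ID1 (9.18%), 2 between ID3 and ID2 (15%), 6 between ID4 and ID2 (18.6%) and 3 between ID4 and ID3 (11.3%). Between ID4 and ID1 the count was 0 by edgeR, DESeq2 and limma (4.87% of all genes by edgeR), and 3 members (MARS, RARS and VARS2) had an unadjusted p under 0.05. IARS (adjusted p = 8.63e-04) was lower in ID2 than in ID1 (-0.47, SE 0.08, adjusted p = 2.20e-04), and also lower in ID2 than in ID3 and ID4. KARS (adjusted p = 0.00224) was lower in ID2 than in ID1 (-0.23, SE 0.06) and higher in ID4 than in ID2 (0.33, SE 0.06). LARS (adjusted p = 0.00364) was lower in ID3 than in ID1 (-0.34, SE 0.07) and ID4. These 3 passed with any single ID library left out.

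VARS2, the mitochondrial valyl enzyme, was read at 4.51, 4.47 and 3.77 CPM in GFP, at 2.90, 3.29 and 3.73 in ID1, at 4.59, 4.43 and 4.50 in ID2, at 6.10, 5.48 and 5.61 in ID3, and at 4.29, 3.97 and 5.83 in ID4. The ID1 libraries were the lowest and the ID3 libraries the highest apart from 1 ID4 library, with 44 to 88 counts behind each value. The difference between ID3 and ID1 was 0.79 (SE 0.17), and the test over the 4 groups (adjusted p = 0.00927) just missed the threshold without ID1 replicate 1 (adjusted p = 0.0508). SARS (adjusted p = 0.0133) was lower in ID2 than in ID1 and ID4, and missed the threshold without ID2 replicate 1 (adjusted p = 0.0704). TARS (adjusted p = 0.0445), IARS2 (0.0445) and MARS (0.0471) also passed, but these 3 calls were fragile. Each was lost whichever ID1 library was left out, and without several other single libraries. They were also lost with the replicate block (adjusted p = 0.0706, 0.0710 and 0.0512) and with only the ID groups fitted (0.0646, 0.0610 and 0.0598).

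IARS2, the mitochondrial isoleucyl enzyme, was read at 135, 120.4 and 141 CPM in GFP, at 121, 131 and 128 in ID1, at 119, 124 and 79.8 in ID2, at 111, 109 and 129 in ID3, and at 146, 146 and 131 in ID4. The lowest library of each group was GFP replicate 2, ID1 replicate 1, ID2 replicate 3, ID3 replicate 2 and ID4 replicate 3. These are the libraries whose deviations correlated positively with each other, as given in the closing section, and the cause was not tested. The third ID2 library stood far below every other one. Its fall in ID2 (-0.28, SE 0.11, adjusted p = 0.0468) was not past the threshold without that library (-0.11, adjusted p = 0.253). The call was also lost without GFP replicate 1 (adjusted p = 0.0986) or 3 (0.162), with only the groups compared (0.114), with the replicate block (0.0620) and among the upper 25% of genes (0.0623). The same library was the lowest of all for IARS, TARS and TARS2, and its mitochondrial sum, 363 CPM, was the lowest of the 15.

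**Figure D5:**
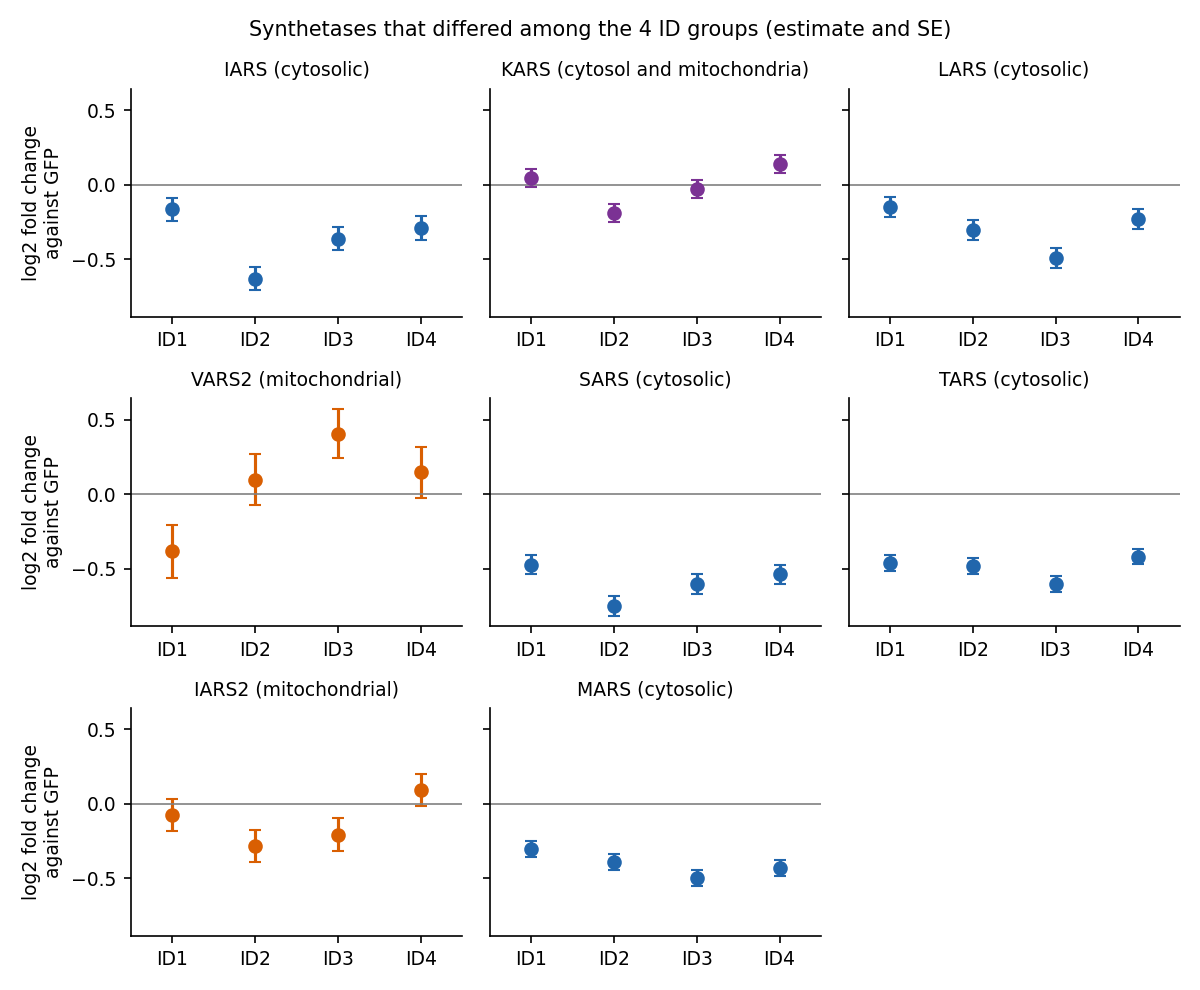
Log2 fold change against GFP in each ID group (points) with its standard error (bars) for 8 synthetases that differed among the 4 ID groups. IARS, KARS and SARS are lowest in ID2, LARS, TARS and MARS are lowest in ID3, and VARS2 runs from -0.38 in ID1 to 0.41 in ID3.

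The members, fallen or not, were spread over the genome. On GRCh37, all 37 lay on 14 chromosomes, and the 16 lower in the mean comparison lay on 12 of these chromosomes. Each of the 16 had a change below the median of its 20 nearest tested genes, which their selection as members that fell made likely. Of all 37 members, fallen or not, 26 had a change below the median of their neighbours. For the 16 that fell, the neighbour medians ran from -0.14 to 0.26 on the log2 scale. The highest belonged to MARS on chromosome 12, which fell by 0.41 on the log2 scale.

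Other genes that act on tRNA charging were counted from a list. Of 11 tested (among them the editing proteins AARSD1, DTD1 and DTD2, the mitochondrial amidotransferase subunits QRSL1, GATB and GATC, the formyltransferase MTFMT and the selenocysteine enzymes PSTK and SEPSECS), 0 fell and 1, TARSL2, rose in the mean comparison of edgeR, beside 32% of all genes changed. At an unadjusted p under 0.05, 1 fell (PSTK), and the counts were the same by DESeq2 and limma. Their median log2 change was 0.06, with a median SE of 0.11, beside 0.05 for the cytosolic enzymes. XPOT, also on the list, had the largest SE (0.12, SE 0.45) and ran from 2.70 to 47.6 CPM. A listed gene that did not pass is therefore not shown to be unchanged. For XPOT and GATC, the lowest library of each group was the one lowest for IARS2, which was seen afterwards and not tested. Of 74 proteins of the mitochondrial ribosome, 14 fell and 3 rose, with a median of -0.06, beside 15.2% of all genes lower and 16.8% higher.

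Genes known to answer to amino acid supply moved in the same comparison, and whether they share a cause with the synthetases was not tested. Of 18 listed, chosen with results of these data known, 15 fell, beside 15.2% of all genes lower. CEBPB rose (0.26, SE 0.05), beside 16.8% of all genes higher, and SLC38A2 (0.02, SE 0.04) and ATF5 (0.11, SE 0.08) did not pass. SLC7A5, a transporter of large neutral amino acids, changed by -2.76 (SE 0.09), ASNS, which makes asparagine, by -2.12 (SE 0.04), and PSAT1, of serine synthesis, by -1.76 (SE 0.06). The mRNA of ATF4 itself changed by -0.51, -0.73, -0.79 and -0.52 in ID1 to ID4, with a mean of -0.64 (SE 0.04, adjusted p = 5.43e-11). The median of the list was -0.87.

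A list of 12 synthetases taken from general knowledge as ATF4 targets (AARS, CARS, EPRS, GARS, IARS, LARS, MARS, NARS, SARS, TARS, WARS and YARS) was also counted, and was drawn up with results of these data known. All 12 fell in the mean comparison, with a median of -0.52, beside 15.2% of all genes lower. Of the other 8 cytosolic or dual members, 3 fell (DARS, QARS and FARSA), with a median of -0.06. By promoter letters, 6 of the 7 members with TGATGNAA fell and YARS2 did not pass. Whether ATF4 or these letters had a part in the falls was not tested. Of the 9 cytosolic or dual members with an entry and no match, 5 fell, among them WARS, SARS and EPRS, so the letters were not present in every member that fell.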

How the data were processed

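RNA from 15 U87MG libraries (5 groups of 3) was sequenced with the QuantSeq 3′ kit by eBiogen on hg19, which is GRCh37. Bowtie2 and BWA are named in the submitters' processing notes; their roles, the annotation, the counting tool and its use of strand are not given in the sources used here. For each gene and library the authors deposited a raw count, not normalized, and a log2 value of the count normalized between libraries. Library totals were 11089044 to 15148979, and no molecular identifiers are named.

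Raw counts were tested with edgeR 4.0.16 in R 4.3.3 (TMM, quasi-likelihood, 1 mean per group over all 15 libraries) on 12870 genes, those whose deposited log2 values averaged 3.217 or more. P-values were adjusted by Benjamini-Hochberg over these genes with a threshold of 0.05. SE is the absolute log2 fold change over the root of F, and intervals cover 95%. On simulated counts for the mean comparison over 12870 genes, 88 of 100 genes changed 1.5-fold and 97 of 100 changed 2-fold were recovered, with 13 false calls. The simulation gave every gene 1 common spread (edgeR dispersion 0.004625) and the same change in all 4 ID groups. Recovery of genes with a wider spread between libraries was not measured.

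Alternatives were no filter, the upper 25% of genes, DESeq2 1.42.0, library sizes alone, limma 3.58.1 with trend on the deposited log2 values, only the groups compared, a replicate block, and leaving out each library. Members and lists were chosen with earlier results of these data known. Values per library are given for the 8 cytosolic and 4 mitochondrial members with the largest change past the threshold in the mean comparison (only 2 mitochondrial ones passed), for GARS, KARS and EPRS, and for the 4 with the smallest adjusted p among ID groups. Single values of 1 member and the promoter of another are not reported here. IARS2 was added after its values were seen. Positions came from GENCODE v44 lifted to GRCh37, and promoters from RefSeq on GRCh38.p14. Figures were drawn with matplotlib 3.10.9.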

Additional observations from a re-analysis of the deposited data

Results flagged for a closer look

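For 8 of the members reported here the change from GFP differed between the ID groups by the F test over the 4 ID groups in edgeR. The adjusted p-values were 8.63e-04 for IARS, 0.00224 for KARS, 0.00364 for LARS, 0.00927 for VARS2, 0.0133 for SARS, 0.0445 for TARS, 0.0445 for IARS2 and 0.0471 for MARS. Over all 12870 genes tested 29.1% passed the same test. The 3 with the smallest p were also called with each ID library left out in turn, and the other 5 were each lost without at least 1 library. Of these, TARS, IARS2 and MARS were lost without several single libraries, and also with the replicate block.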

How the results depend on the processing

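The 14 cytosolic members lower in the mean comparison numbered 14 under every alternative run, and 15 with GARS and KARS counted as cytosolic. Of the 17 members called in that comparison, 16 were called under all alternatives that tested them, with no change of sign, and the exception was TARS2 without GFP replicate 3. The count of mitochondrial members changed, 2, was 1 among the upper 25% of genes, where fewer genes are tested, and ran from 1 to 4 with a library left out, being 1 without GFP replicate 3 and 4 without GFP replicate 1. The cytosolic median minus the mitochondrial one, -0.39, ran from -0.42 to -0.33 with a library left out, at -0.33 without GFP replicate 1 and -0.36 without ID2 replicate 3. Members changed numbered 9 to 13 in ID1 (9 without ID1 replicate 2), 17 to 18 in ID2, 15 to 18 in ID3, 12 to 17 in ID4 and 16 to 19 in the mean with a library left out. Among the ID groups they numbered 5 to 11, with 5 without ID1 replicate 1 or ID4 replicate 1, and the cause was not tested. The mean change of KARS, -0.01, turned to 0.00367 among the upper 25% of genes, 0.032 without GFP replicate 1 and 0.00342 without ID1 replicate 2. With a library left out it ran from -0.0477 to 0.032. That of VARS2, 0.07, turned to -0.00854 without GFP replicate 3 and ran up to 0.106. Neither had passed.

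Labels number the libraries 1 to 3 in each group and give no shared source, so the libraries were not paired by number. Deviations of same-numbered libraries correlated between -0.235 and 0.234. With 3 libraries in each group, these values cannot decide whether same-numbered libraries share a source. Libraries with different numbers also correlated, in both directions. GFP replicate 2, ID1 replicate 1, ID2 replicate 3, ID3 replicate 2 and ID4 replicate 3 correlated positively in every pair among them, from 0.0764 to 0.234. They were picked after the values were seen, and a factor shared by them was not tested. The replicate block goes by number and does not cover such a grouping. With the replicate block, members changed numbered 13 in ID1, 17 in ID2, 18 in ID3, 16 in ID4, 17 in the mean and 6 among ID groups, against 14, 18, 18, 15, 17 and 9 without it.

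Low counts limit the mitochondrial members most, with standard errors of up to 0.25.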
